A study of Homo sapiens with 6 samples.

Results

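The mitochondrial protein import machinery was followed through 37 of the 26410 rows of a gene count table. The rows were taken by name: the TOMM and TIMM genes, PAM16 and TIMMDC1, and, by their own symbols, GRPEL1, GRPEL2, SAMM50, MTX1, MTX2, PMPCA, PMPCB, CHCHD4, GFER, PHB and PHB2. RNA came from Kasumi-1, an established human line of acute myeloid leukaemia in which RUNX1 is fused to RUNX1T1. A lentiviral vector with a human U6 promoter, a green fluorescent marker and puromycin resistance carried the short hairpin RNA. The shPHF19 group (3 libraries) received a hairpin against PHF19, an accessory subunit of Polycomb repressive complex 2. The Control group (3 libraries) carries the treatment label WT, whereas the series title and protocol name a scrambled hairpin. Both groups came from the same line, and the protocol describes puromycin selection at 2 µg/ml, from 48 h after delivery and for at least 24 h. The labels name neither the hairpin sequence nor a further hairpin, and nothing in them says that replicates were separate cultures. The p-values then measure only how far these libraries differ, a spread that may be technical.

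Nearly all mitochondrial proteins are made in the cytosol and imported. Precursors enter through the TOM complex of the outer membrane and are then sorted: presequence proteins go through TIM23 and its PAM motor to the matrix, where the processing peptidase MPP removes the presequence. Carrier proteins go through TIM22 with the help of small TIM chaperones, beta-barrel proteins go to the SAM complex, and small cysteine-rich proteins are trapped by the MIA oxidation pathway of the intermembrane space. Prohibitins are not translocase subunits but form ring-shaped scaffolds in the inner membrane, where they bind proteases and newly imported proteins.

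The libraries held 14229878 to 16615143 counts, and PHF19 itself checked the labels, with 41.1, 36.9 and 33.0 CPM in shPHF19 libraries against 168, 199 and 189 CPM in Control libraries (CPM are counts scaled to a common library size with TMM factors; log2 fold change -2.32, SE 0.0975; edgeR adjusted p = 3.55e-25). The myeloid blast markers CD34, KIT, CD33, ANPEP, MPO, RUNX1T1 and CD4 were all detected, with summed levels of 12524 to 13296 CPM in shPHF19 and 7807 to 8101 CPM in Control libraries. Most of that sum is MPO, at a mean of 8394 CPM in shPHF19 and 4278 CPM in Control libraries, whereas ANPEP averaged 21.4 CPM in shPHF19 and 33.3 CPM in Control libraries and RUNX1T1 146 CPM in shPHF19 and 188 CPM in Control libraries. Summed fibroblast markers reached at most 2.82 CPM in shPHF19 and 3.57 CPM in Control libraries. Summed B-cell markers ran from 11.7 to 13.7 CPM in shPHF19 and from 9.90 to 13.7 CPM in Control libraries. The T-cell list ran from 49.7 to 53.9 CPM in shPHF19 and from 38.0 to 42.7 CPM in Control libraries, mostly CD3D. The epithelial list ran from 80.4 to 95.1 CPM in shPHF19 and from 52.5 to 67.8 CPM in Control libraries, nearly all EPCAM, with KRT19 and CDH1 each below 1 CPM on average. The part of these markers in the results below was not tested.

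Most import genes were higher in shPHF19 cells, with TIMM9 the only called exception. Of the 37 genes, 36 passed the expression filter, with 27 that rose, 1 that fell and 8 short of the threshold (edgeR quasi-likelihood test, adjusted p under 0.05 over all genes). The same test called 60.2% of all 13014 genes tested, 29.4% as higher and 30.9% as lower, so the share of import genes called higher, 75.0%, stands beside 29.4% and the share called lower, 2.78%, beside 30.9%. The median log2 fold change was 0.52 over the 36 genes and -0.03 over all genes tested. The 3 shPHF19 values lay above the 3 Control values for 26 of the 36 and below them for 1, where the shares among all genes were 30.9% and 32.6%. At least a 2-fold rise was called for 5 of the 36 (PHB, TIMM50, TOMM40, GRPEL1 and TOMM5) and for 5.72% of all genes. The 37 genes together held 3643, 3640 and 3574 CPM in shPHF19 libraries and 2377, 2412 and 2263 CPM in Control libraries, a 1.54-fold ratio of the means. In bulk RNA, a change in the cells of a type and a change in RNA per cell cannot be told apart. Scaled by library totals only, which shifts the median of all genes to -0.24, 19 of the 36 were called higher and 4 lower. The import median was 0.55 above that of all genes with either scaling. Scaling shifts all genes nearly alike, so this gap could not change and tests nothing. Of all calls 48.8% were higher with TMM and 31.5% with library totals only.

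**Figure D1:**
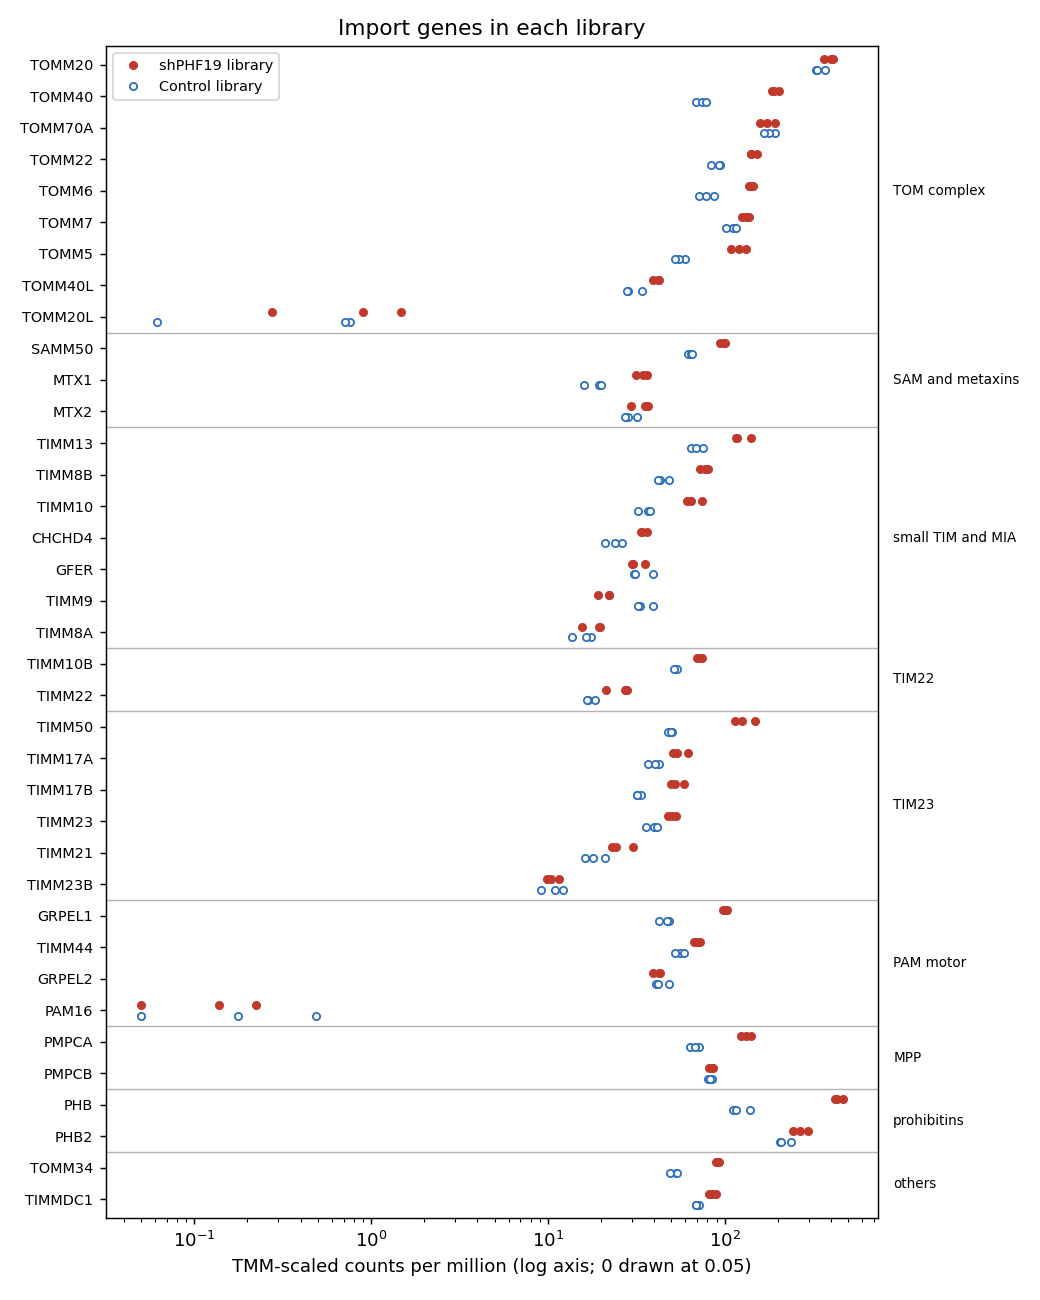
Level of each of the 37 import genes in every library, in CPM on a log axis (zeros are drawn at the left edge), grouped by role. Filled points are the 3 shPHF19 libraries and open points the 3 Control libraries. PHB shows the widest gap between groups among the tested genes, TIMM9 lies lower in all shPHF19 libraries, and PAM16 and TOMM20L stand at the detection limit.

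In the TOM complex, 7 of 9 genes rose, none fell and 2 did not pass, with a median log2 fold change of 0.68. With library totals only, the calls of 3 of the 7 (TOMM20, TOMM7 and TOMM40L) were lost, and the estimate of TOMM20 turned negative. TOMM40, the beta-barrel that forms the pore (chromosome 19, 44890569 to 44903689, plus strand, GRCh38, GENCODE 29), stood at 203, 191 and 185 CPM in shPHF19 libraries and 69.1, 74.2 and 78.1 CPM in Control libraries. The groups were far apart, with a log2 fold change of 1.39 (SE 0.0872; edgeR adjusted p = 1.09e-18). TOMM5 and TOMM6, small subunits that stabilise the complex, rose as well, with log2 fold changes of 1.10 and 0.84, and TOMM22, a receptor that also organises the complex, rose by 0.68. TOMM40L, a paralogue of the channel, stood at 42.5, 42.0 and 39.2 CPM in shPHF19 libraries and 28.3, 34.1 and 27.9 CPM in Control libraries. Its log2 fold change was 0.45 (SE 0.114; edgeR adjusted p = 0.000623), called in every alternative except library totals only (edgeR adjusted p = 0.0552). TOMM7 rose by 0.26 on the log2 scale (SE 0.0866; edgeR adjusted p = 0.00949), and this call was lost with upper-quartile factors, with library totals only, with the length trend removed, and without Control replicate 3 or shPHF19 replicate 2. Across those and the other alternatives its adjusted p ran from 0.00316 to 0.611.

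The presequence receptor TOMM20 was just past the threshold, with a log2 fold change of 0.18 (SE 0.0817; edgeR adjusted p = 0.0478) that became -0.02 with library totals only. Its values, 364, 398 and 412 CPM in shPHF19 and 369, 331 and 335 CPM in Control libraries, overlap between groups. The call did not hold in 9 of 16 alternatives, the replicate block among them (adjusted p from 0.000564 to 0.837 over all 16). TOMM70A, the receptor for carrier precursors (now named TOMM70), had 159, 174 and 194 CPM in shPHF19 libraries and 192, 178 and 167 CPM in Control libraries. Its log2 fold change was -0.02 (SE 0.0865; edgeR adjusted p = 0.824), and the groups overlap. With library totals only TOMM70A was called lower, at -0.23 (edgeR adjusted p = 0.0221). TOMM20L, a paralogue of the receptor, was near the limit of detection, with 20, 14 and 4 counts in shPHF19 and 1, 13 and 11 counts in Control libraries, and did not pass the test (edgeR adjusted p = 0.286). Outside the complex, TOMM34, a cytosolic co-chaperone that binds precursors, stood at 93.4, 89.3 and 90.7 CPM in shPHF19 and 53.0, 53.5 and 48.9 CPM in Control libraries, for 0.81 on the log2 scale (SE 0.0941; edgeR adjusted p = 2.75e-10).

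Of the 3 genes for beta-barrel insertion, the SAM channel and MTX1 rose and MTX2 did not pass. SAMM50, the channel itself, had a log2 fold change of 0.61 (SE 0.0913; edgeR adjusted p = 1.64e-07). The metaxin MTX1, an outer-membrane partner of SAMM50, had 36.4, 34.5 and 31.6 CPM in shPHF19 libraries and 19.4, 20.1 and 16.0 CPM in Control libraries (log2 fold change 0.88, SE 0.126; edgeR adjusted p = 4.94e-08). Its partner MTX2 had 29.7, 35.3 and 36.8 CPM in shPHF19 libraries and 32.0, 28.5 and 27.3 CPM in Control libraries. Those values overlap, and MTX2 did not pass (log2 fold change 0.21, SE 0.118; edgeR adjusted p = 0.114), although it was called without shPHF19 replicate 1 and with both length and GC trends taken out (adjusted p 0.0294 to 0.948 over the alternatives). Of the 50-base windows of MTX1 transcripts, 15.5% also occur in its pseudogene MTX1P1, so its level depends on how shared reads were treated.

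Of the 7 small TIM and MIA genes, 4 rose, TIMM9 fell and 2 did not pass. TIMM9 and TIMM10 form a hexamer in the intermembrane space that shields hydrophobic precursors. TIMM10 (chromosome 11, 57528463 to 57530803, minus strand) stood at 74.7, 64.8 and 61.6 CPM in shPHF19 libraries and 36.8, 38.0 and 32.4 CPM in Control libraries, a log2 fold change of 0.91 (SE 0.106; edgeR adjusted p = 3.38e-10). TIMM9 (chromosome 14, 58408494 to 58427614, minus strand) stood at 22.1, 19.2 and 22.3 CPM in shPHF19 libraries and 39.3, 33.1 and 32.4 CPM in Control libraries. All shPHF19 values of TIMM9 lie below all Control values, with a log2 fold change of -0.72 (SE 0.123; edgeR adjusted p = 2.07e-06), and the call held in all 16 alternatives with log2 fold changes of -0.93 to -0.63. The ratio of TIMM9 to TIMM10 counts within a library, on which library scaling has no effect, was 0.297, 0.296 and 0.362 in shPHF19 and 1.07, 0.873 and 0.998 in Control libraries. The annotated exons of TIMM9 share 223 bases with KIAA0586 and 173 bases with TOMM20L, both on the opposite strand, and the strand setting of the counting is not stated.

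The TIMM8 and TIMM13 chaperones form the other hexamer, which serves the TIMM23 precursor among others. TIMM13 and TIMM8B rose, with log2 fold changes of 0.85 and 0.78. TIMM8B had 77.0, 80.2 and 72.5 CPM in shPHF19 libraries and 43.4, 48.7 and 41.8 CPM in Control libraries (SE 0.0994; edgeR adjusted p = 3.41e-09). TIMM8A, the paralogue mutated in the Mohr-Tranebjaerg deafness-dystonia syndrome, had 19.6, 15.5 and 19.7 CPM in shPHF19 libraries and 13.8, 17.5 and 16.4 CPM in Control libraries. It did not pass (log2 fold change 0.20, SE 0.146; edgeR adjusted p = 0.241), and its estimate was -0.01 with library totals only. In the MIA pathway, CHCHD4, the oxidoreductase that traps its substrates by disulfide bonds, had 33.7, 36.2 and 33.9 CPM in shPHF19 and 26.4, 23.9 and 21.1 CPM in Control libraries (log2 fold change 0.54, SE 0.12; edgeR adjusted p = 0.000144). GFER, the sulfhydryl oxidase that re-oxidises CHCHD4, had 35.4, 30.0 and 30.4 CPM in shPHF19 and 30.9, 39.6 and 31.0 CPM in Control libraries, overlapping values that did not pass (log2 fold change -0.09, SE 0.12; edgeR adjusted p = 0.552). GFER was called lower with library totals only, at -0.29 (edgeR adjusted p = 0.0337).

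The promoter windows of the genes for the hexamer that split and of CHCHD4 are shown to compare their motifs (RefSeq, GRCh38.p14, 250 bases before to 50 after the annotated start, printed 5′ to 3′ on the gene's strand). Capitals mark an E-box, CACGTG, the letters bound by MYC and related factors, or the core of the motif of NRF1, a factor known for driving nuclear genes of mitochondria. Both motifs read the same on either strand and do not overlap each other.
TIMM10 promoter (chr11:57530705-57531004, minus strand): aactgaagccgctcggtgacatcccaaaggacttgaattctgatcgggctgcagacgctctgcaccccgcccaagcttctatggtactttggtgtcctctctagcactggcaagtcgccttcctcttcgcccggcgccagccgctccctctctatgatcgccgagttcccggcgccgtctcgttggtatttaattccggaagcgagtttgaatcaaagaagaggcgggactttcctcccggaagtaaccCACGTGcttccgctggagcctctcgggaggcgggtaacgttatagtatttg
TIMM9 promoter (chr14:58427482-58427781, minus strand): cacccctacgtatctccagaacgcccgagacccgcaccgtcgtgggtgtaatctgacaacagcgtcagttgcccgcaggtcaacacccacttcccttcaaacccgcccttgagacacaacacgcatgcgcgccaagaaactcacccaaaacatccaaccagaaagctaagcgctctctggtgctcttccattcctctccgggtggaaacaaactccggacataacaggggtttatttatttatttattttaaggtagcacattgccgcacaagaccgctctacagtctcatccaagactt
CHCHD4 promoter (chr3:14124821-14125120, minus strand): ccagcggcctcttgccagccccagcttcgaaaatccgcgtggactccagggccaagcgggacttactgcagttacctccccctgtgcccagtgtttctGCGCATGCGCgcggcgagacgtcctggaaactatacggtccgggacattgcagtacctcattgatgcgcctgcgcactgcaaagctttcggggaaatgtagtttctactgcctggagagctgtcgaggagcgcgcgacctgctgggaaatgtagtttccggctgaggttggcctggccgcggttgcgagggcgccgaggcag
TIMM10 holds an E-box whose first letter is the last base before the start, and CHCHD4 holds the NRF1 core from 152 bases before the start. The TIMM9 window holds neither motif in its exact letters, and near matches were not counted in any window. Of the 34 import genes with a window, 3 (8.82%, exact 95% interval 1.86 to 23.7%) hold an E-box, namely TOMM20, TIMM8A and TIMM10, against 7.43% of 27305 windows in all. Those 27305 windows were not limited to expressed genes. With only the bases before the start, 1 of the 34 (2.94%), TOMM20, holds an E-box, against 6.49% of all windows. The NRF1 core is in 1 of the 34 (2.94%, interval 0.0744 to 15.3%) and in 1.36% of all windows. Both intervals include the share of all windows, but with 34 windows they are too wide to decide whether the shares differ.

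Both genes of the carrier translocase that were taken by name rose. Outside that choice, the subunit C19orf52 did not pass and the subunit AGK rose. TIMM22, its channel-forming subunit, had 28.0, 27.4 and 21.5 CPM in shPHF19 libraries and 18.4, 16.9 and 16.7 CPM in Control libraries (log2 fold change 0.56, SE 0.135; edgeR adjusted p = 0.000351). TIMM10B, the small TIM that docks the chaperones on TIM22, had 70.8, 74.4 and 69.4 CPM in shPHF19 libraries and 52.4, 53.7 and 52.002 CPM in Control libraries (log2 fold change 0.44, SE 0.0961; edgeR adjusted p = 0.000104). Neither gene's groups overlap. TIMM29, a metazoan subunit of the same translocase, is listed under its older symbol C19orf52, which the choice of rows by name does not take in. It had 21.2, 19.4 and 16.5 CPM in shPHF19 and 15.9, 20.9 and 17.1 CPM in Control libraries. C19orf52 did not pass the test (log2 fold change 0.08, SE 0.144, edgeR adjusted p = 0.627). AGK is among the other import genes below. Its levels were 58.9, 72.3 and 76.1 CPM in shPHF19 and 36.6, 38.4 and 32.3 CPM in Control libraries (log2 fold change 0.95, SE 0.108, edgeR adjusted p = 1.63e-10).

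In the TIM23 translocase, 5 of 6 genes rose and TIMM23B did not pass, with TIMM50 at the largest fold change of the group. TIMM50, the receptor that hands presequences from TOM to TIM23 (chromosome 19, 39480412 to 39493785, plus strand), had 148, 125 and 115 CPM in shPHF19 libraries and 47.8, 50.4 and 49.6 CPM in Control libraries, a log2 fold change of 1.39 (SE 0.0967; edgeR adjusted p = 3.4e-17). The paralogues TIMM17A and TIMM17B, alternative subunits next to the channel, rose by log2 fold changes of 0.48 and 0.72. TIMM21, which links TOM and TIM23, rose by 0.49, and TIMM23, the core subunit, by 0.36. With library totals only, the call of TIMM21 was lost (edgeR adjusted p = 0.0712), as was that of TIMM23 (0.197). TIMM23B is a paralogue of TIMM23 on the same chromosome. It had 11.6, 10.5 and 9.84 CPM in shPHF19 and 9.16, 11.02 and 12.2 CPM in Control libraries. TIMM23B did not pass (log2 fold change -0.02, SE 0.168, edgeR adjusted p = 0.925). Of the 50-base windows of TIMM23 transcripts, 16.97% also occur in TIMM23B, so the split of counts between both genes is uncertain.

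At the matrix side, GRPEL1 and TIMM44 rose, GRPEL2 did not pass and PAM16 was not tested. The PAM motor is driven by the mitochondrial HSP70, which TIMM44 anchors to the channel and GrpE proteins recharge by nucleotide exchange. GRPEL1 (chromosome 4, 7058906 to 7068197, minus strand) had 97.3, 102 and 104 CPM in shPHF19 libraries and 48.8, 47.1 and 42.3 CPM in Control libraries, a log2 fold change of 1.13 (SE 0.0954; edgeR adjusted p = 2.36e-14). Its paralogue GRPEL2 (chromosome 5, 149345430 to 149354583, plus strand) had 39.2, 43.3 and 42.8 CPM in shPHF19 libraries and 48.5, 40.7 and 41.8 CPM in Control libraries. GRPEL2 overlapped between groups and did not pass (log2 fold change -0.06, SE 0.108; edgeR adjusted p = 0.632), although it was called lower with library totals only, at -0.27 (edgeR adjusted p = 0.0303). TIMM44 rose by a log2 fold change of 0.33, a call lost with library totals only (edgeR adjusted p = 0.279). PAM16, a J-like regulator of the motor, was left out by the filter, with 3, 0 and 2 counts in shPHF19 libraries and 8, 3 and 0 counts in Control libraries. Its exons share 522 bases with the read-through gene CORO7-PAM16, which is listed in the table with 0 counts in every library, and how reads common to both were assigned is not stated.

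Of the processing peptidase, PMPCA rose and PMPCB did not pass. MPP is a dimer of PMPCA, the presequence-binding subunit, and PMPCB, the catalytic subunit. PMPCA had 141, 133 and 123 CPM in shPHF19 libraries and 63.6, 71.3 and 67.7 CPM in Control libraries, a log2 fold change of 0.97 (SE 0.0903; edgeR adjusted p = 4.93e-13). PMPCB had 85.5, 85.1 and 81.2 CPM in shPHF19 libraries and 84.4, 80.2 and 82.7 CPM in Control libraries, with a log2 fold change of 0.03 (SE 0.0902; edgeR adjusted p = 0.825) that was -0.08 with upper-quartile factors and -0.18 with library totals only. The shPHF19 ratios of PMPCA to PMPCB counts were 1.65, 1.56 and 1.52, and the Control ratios were 0.753, 0.889 and 0.819, with no overlap. PMPCB shares 628 exonic bases with DNAJC2 on the opposite strand. Opposite-strand sharing also occurs in genes that rose, among them TIMMDC1 (798 bases with CD80), TOMM40L (661 with NR1I3) and TIMM8B (351 with C11orf57). The unstated strand setting bears on each of these. TIMM13 shares 313 bases with TMPRSS9 on the opposite strand and 257 with LMNB2 on its own strand.

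Both prohibitins rose, PHB with the largest log2 fold change of all 36 tested import genes. PHB (prohibitin 1; chromosome 17, 49404049 to 49414905, minus strand) had 434, 465 and 423 CPM in shPHF19 libraries and 111, 138 and 116 CPM in Control libraries, a 3.62-fold rise (log2 fold change 1.86, SE 0.0883; edgeR adjusted p = 4.35e-23). PHB2, with which it alternates in the ring, had 295, 265 and 243 CPM in shPHF19 libraries and 206, 239 and 208 CPM in Control libraries (log2 fold change 0.30, SE 0.0858; edgeR adjusted p = 0.00245). The call of PHB2 was lost with library totals only (edgeR adjusted p = 0.337). The ratio of PHB to PHB2 counts was 1.47, 1.75 and 1.74 in shPHF19 libraries and 0.539, 0.580 and 0.556 in Control libraries. GENCODE 29 lists 21 pseudogenes that carry the name of PHB, and 3.24% of its 50-base transcript windows occur in another gene. The promoter window of PHB, the gene with the largest change of the list, holds neither motif and so has no capitals.
PHB promoter (chr17:49414833-49415132, minus strand): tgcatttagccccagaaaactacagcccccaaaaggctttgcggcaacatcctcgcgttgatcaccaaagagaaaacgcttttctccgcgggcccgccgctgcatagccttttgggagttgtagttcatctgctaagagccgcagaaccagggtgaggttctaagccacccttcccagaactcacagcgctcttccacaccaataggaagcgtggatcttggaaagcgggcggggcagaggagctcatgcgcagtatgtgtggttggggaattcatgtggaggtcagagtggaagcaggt
TIMMDC1, which helps to assemble respiratory complex I and shares the TIMM17 protein fold, had 82.1, 89.3 and 85.3 CPM in shPHF19 libraries and 71.7, 69.2 and 69.0 CPM in Control libraries (log2 fold change 0.29, SE 0.0917; edgeR adjusted p = 0.00567). That call was lost with upper-quartile factors and with library totals only (adjusted p up to 0.42).

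**Figure D2:**
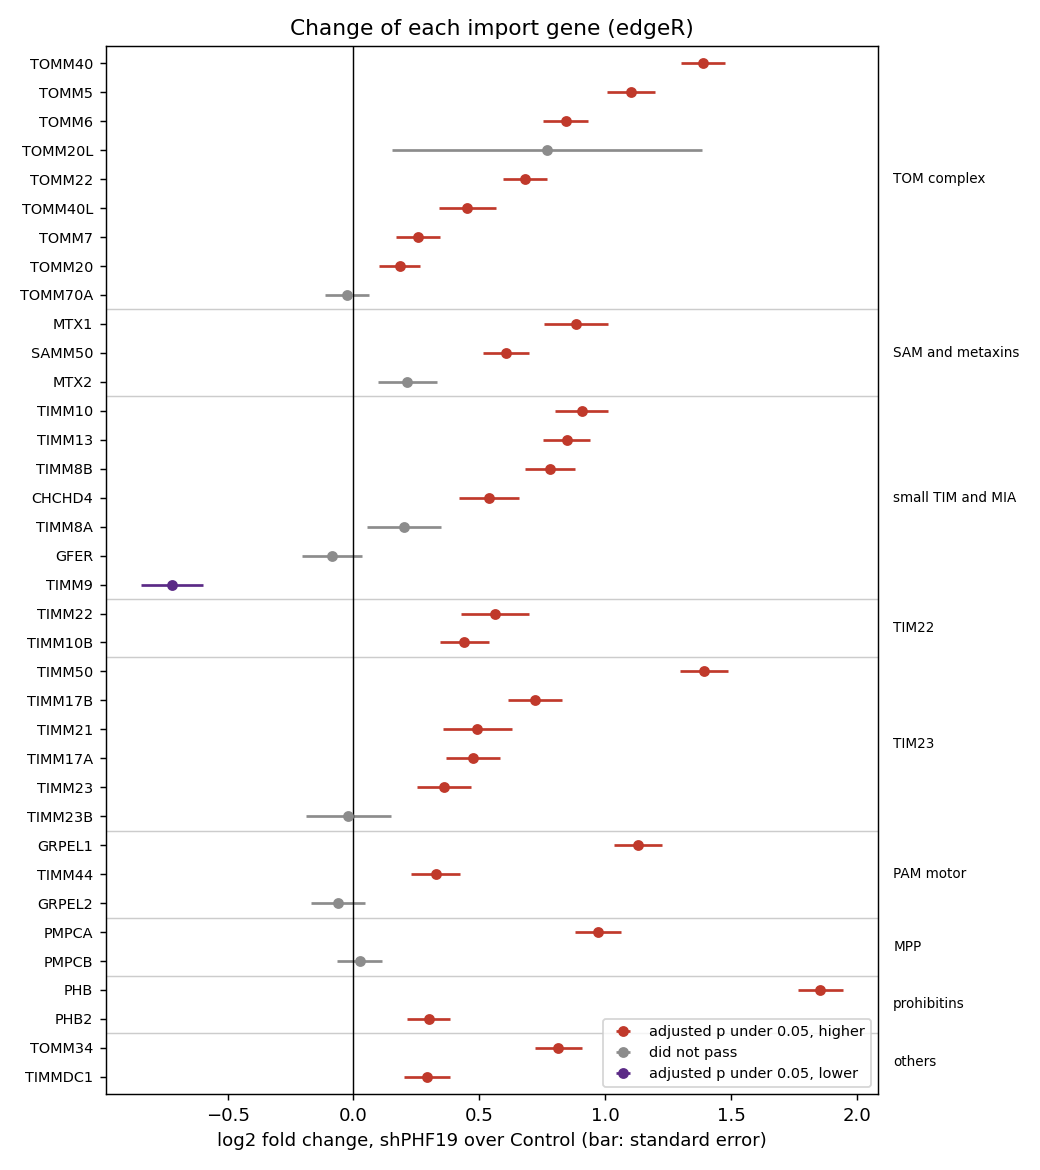
Log2 fold change of the 36 tested import genes, shPHF19 over Control, with standard errors from edgeR, grouped by role. Colours mark genes past an adjusted p of 0.05 (27 higher, 1 lower) and the 8 that did not pass. PHB at 1.86 and TIMM9 at -0.72 mark the ends, and several role groups hold both a called gene and an uncalled partner near 0.

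Ratios of partners and paralogues were compared within libraries for 12 pairs. The 3 shPHF19 ratios did not overlap the 3 Control ratios in 9 pairs, each with an exact 2-sided permutation p of 0.1, the smallest that 3 against 3 allows, and 0.133 after Benjamini-Hochberg adjustment over the 12 pairs. This exact test therefore cannot pass 0.05 with 3 libraries a group, whatever the size of the difference. Single genes did not overlap between groups for 63.5% of all genes tested, and the share over other pairs of genes was not computed. The largest differences were in PHB over PHB2 (1.56 on the log2 scale), TIMM9 over TIMM10 (-1.62) and GRPEL1 over GRPEL2 (1.19). The GRPEL1 ratio was 2.34 to 2.48 in shPHF19 libraries and at most 1.16 in Control libraries. For TOMM40 over TOMM40L the difference was 0.93, for PMPCA over PMPCB 0.95, for MTX1 over MTX2 0.68, for CHCHD4 over GFER 0.62, for TIMM10 over TIMM10B 0.47 and for TIMM8A over TIMM8B -0.58. The ratios overlapped for TIMM17A over TIMM17B (difference -0.25, exact permutation p = 0.2), TIMM23 over TIMM23B (0.37, p = 0.2) and TOMM20 over TOMM20L (-0.82, p = 0.6).

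**Figure D3:**
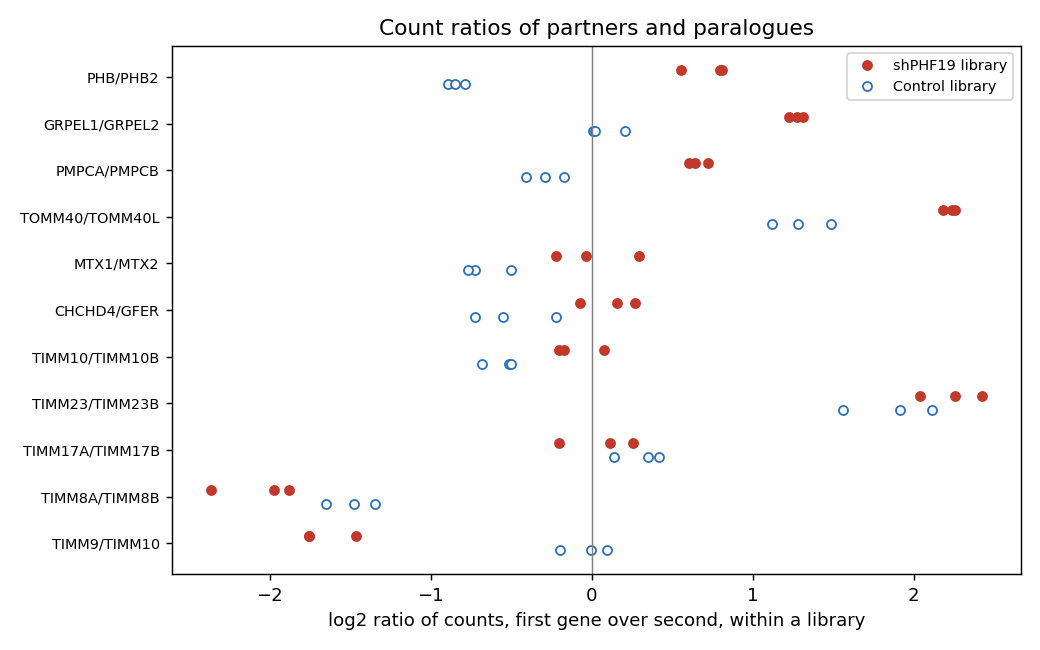
Log2 ratio of counts within each library for 11 pairs (TOMM20 over TOMM20L, which rests on few counts, is left out), with filled points for the 3 shPHF19 and open points for the 3 Control libraries. The pairs run from the most negative difference at the bottom, TIMM9 over TIMM10, to the most positive at the top, PHB over PHB2. In both of these pairs the groups lie clear of each other.

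Per kilobase of annotated exon, TOMM6 had the highest level of the 37 genes in both groups, 222 ± 6.89 CPM per kb in shPHF19 and 124 ± 11.9 CPM per kb in Control libraries (SD, n = 3 each). PHB ranked 2 in shPHF19 at 115 ± 5.77 CPM per kb and 11 in Control at 31.7 ± 3.82 CPM per kb. TOMM20 ranked 3 in shPHF19 at 111 ± 7.003 CPM per kb and 2 in Control at 97.3 ± 5.92 CPM per kb. PHB2 ranked 4 in shPHF19 at 107 ± 10.5 CPM per kb and 3 in Control at 87.1 ± 7.27 CPM per kb. In shPHF19 cells, PHB, TOMM20 and PHB2 do not differ beyond their SDs. TIMM50 ranked 22 in shPHF19 and 30 in Control libraries, and TIMM9 ranked 27 in shPHF19 and 14 in Control libraries. All 635 windows of 50 bases in TOMM6 transcripts are also found in transcripts of AL365205.1, so its level is less certain than that of the others. Windows also found in other genes made up 16.93% for TOMM5, 13.42% for TIMM10B, 10.84% for TOMM40 and 10.56% for TIMM13, which rose too. The exon lengths of the 36 tested genes had a median of 3125 bases, against 4969 over the tested genes with an annotation, and their GC content had a median of 47.5%, against 48.6%. The 27 genes that rose had a median GC content of 48.8% and the other 9 of 43.0%. With the length trend removed, 25 genes rose and 1 fell, and with both length and GC trends taken out 28 rose and 1 fell.

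Other genes of import, maturation and inner-membrane upkeep, from a list that the choice by name does not hold, were more often called higher than lower. Of 38 listed, 37 were matched in the table (not MAIP1) and 36 were tested (DNAJC15 had too few counts), and 22 rose, 3 fell and 11 did not pass. Their share called higher was 61.1% beside 29.4% of all genes, and their median log2 fold change was 0.37. HSPE1, the co-chaperonin of the matrix, had 34.7, 24.4 and 34.2 CPM in shPHF19 libraries and 7.38, 7.48 and 7.26 CPM in Control libraries (log2 fold change 2.07, SE 0.153; edgeR adjusted p = 2.79e-16). Shared exon bases and shared transcript windows were not examined for HSPE1 or the other genes of this list. The outer-membrane channel VDAC1 (1.07), the outer-membrane insertase MTCH2 (0.85), DNAJC11 (1.06), a J protein that binds the SAM and MICOS complexes, the prohibitin-like scaffold STOML2 (0.99) and the matrix protease CLPP (0.98) were the other rises with the smallest adjusted p, given as log2 fold changes.

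The 3 that fell included the motor protein itself. HSPA9, the mitochondrial HSP70, had 481, 517 and 556 CPM in shPHF19 libraries and 737, 652 and 657 CPM in Control libraries (log2 fold change -0.40, SE 0.0816; edgeR adjusted p = 4.43e-05), while its exchange factor GRPEL1 rose. YME1L1, an inner-membrane protease that degrades TIMM17A among other substrates, had 145, 147 and 170 CPM in shPHF19 libraries and 206, 187 and 200 CPM in Control libraries (log2 fold change -0.36, SE 0.0851; edgeR adjusted p = 0.000308). XPNPEP3, an aminopeptidase whose yeast relative trims imported proteins, had 13.5, 12.9 and 13.9 CPM in shPHF19 libraries and 21.0, 18.4 and 19.6 CPM in Control libraries (log2 fold change -0.55, SE 0.143; edgeR adjusted p = 0.000938). The groups of these 3 genes do not overlap, and their calls held in all 16 alternatives.

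Both comparison families of nuclear-encoded mitochondrial genes were also mostly called higher. Among 76 tested mitochondrial ribosomal protein genes, 56 rose and 4 fell (73.7% higher, median log2 fold change 0.53), and among 78 tested respiratory-chain subunit genes 64 rose and 2 fell (82.1% higher, median 0.73). The differences between these families and the import genes were not tested. The authors' deposited table holds 5740 genes, beside 26410 rows in the count table. It has no adjusted p above 0.00993 and no absolute log2 fold change below 0.32. Of the 37 import genes it lists 24, with 23 as higher and 1, TIMM9, as lower. TOMM20, TOMM7, PHB2 and TIMMDC1, called higher here, are not in it. How all 5740 genes split into higher and lower was not computed. The authors' table comes from the same series and is no independent check.

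**Figure D4:**
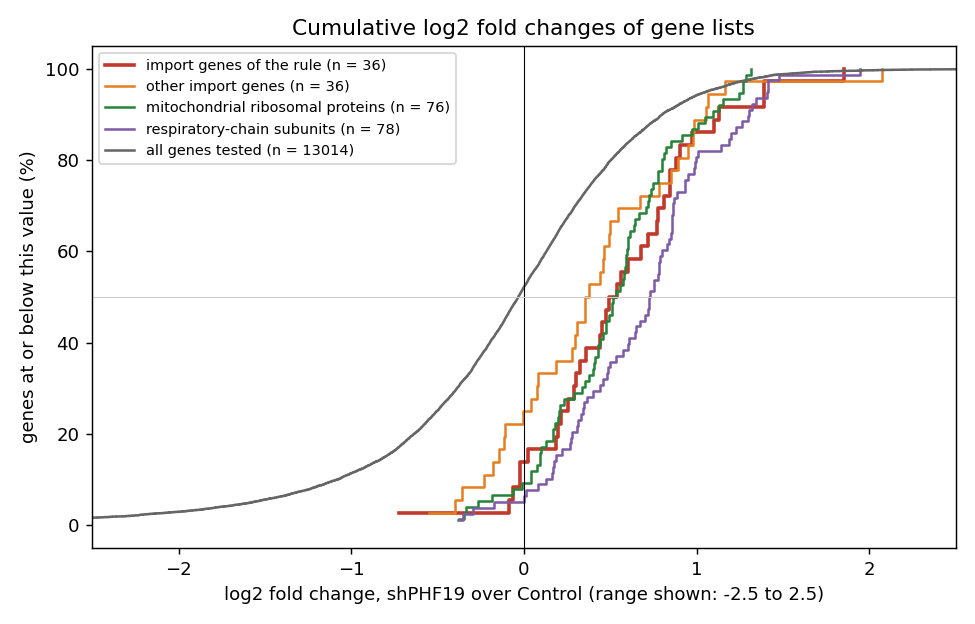
Cumulative share of genes by log2 fold change, shPHF19 over Control, for the 36 tested import genes, 36 other import genes, 76 mitochondrial ribosomal proteins, 78 respiratory-chain subunits and all 13014 genes tested. The horizontal line marks 50%. The mitochondrial lists lie to the right of all genes, with medians of 0.52, 0.37, 0.53 and 0.73 beside -0.03.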

How the data were processed

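Gene counts of 6 Kasumi-1 libraries were used. The authors deposited whole-number counts per gene symbol, not normalized. The submitters' processing notes name hg38, HTSeq 0.11.2 and HISAT2 2.1.0, and no source used here gives the annotation or the strand setting. A further table deposited by the authors gives mean normalized signal, log2 fold changes and p-values, per the file headers, and its tool is not stated.

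Counts were fitted over all genes with edgeR 4.0.16 in R 4.3.3 (filterByExpr, TMM, group as the only term, robust quasi-likelihood F test), with Benjamini-Hochberg adjustment over 13014 genes and a threshold of 0.05. The SE of a log2 fold change is its size divided by the square root of F. Names turned into dates stayed in the tests. The fit was tested on simulated data with known fold changes. Far fewer genes changed in the simulation than were called here, so it checks the code and not the scaling of these data. Groups came from the sample titles. The erythroid marker list is not reported here. Within-library ratios added 0.5 counts to each gene and used exact permutation tests (SciPy 1.17.1). A gene at 0 counts could hold up to 3 counts, which is 0.177 to 0.223 CPM here. The exact intervals of motif shares are binomial over promoter windows and do not concern read counts. GENCODE 29 gave positions, exon lengths and GC content, matched for 97.0% of tested genes, and RefSeq gave promoter windows for 34 of the 37 import genes.

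The text gives values in every library for the genes with the largest and the smallest change in each role group, for called genes moving against the majority, and for pairs whose ratios did not overlap. Of the other import genes it names the 6 with the smallest adjusted p, those that fell, and AGK. C19orf52, TOMM20 and AGK were added after their values were seen. The genes and lists were chosen with earlier results of these data known. Alternatives were DESeq2 1.42.0, limma-voom (limma 3.58.1), other scalings, filters, trends removed, a replicate block and leaving out each library.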

Additional observations from a re-analysis of the deposited data

How the results depend on the processing

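The counts of called genes kept within 1.5 times of the reported ones in all 16 alternatives, apart from small counts of lower genes. With upper-quartile factors the lower calls were 7 among other import genes and 4 among respiratory-chain subunits, and the median import log2 fold change was 0.41. With library totals only there were 4 lower import genes, 8 lower other import genes, 5 lower respiratory-chain subunits and a median of 0.31 (the median of all genes is then -0.24, against -0.03 with TMM). With the length trend removed the median was 0.47, and with length and GC trends both taken out 5 other import genes were lower. Leaving out 1 library at a time, the median ran from 0.49 to 0.56. Signs turned for TOMM20, for 6 genes that did not pass the test and for the TOMM20 over TOMM20L difference, and no turned gene value was called. With library totals only TOMM20 was -0.0207, TIMM8A -0.00559 and PMPCB -0.181, and with upper-quartile factors PMPCB was -0.0774. With both trends taken out TOMM70A was 0.0402, TIMM23B 0.0099 and GRPEL2 0.04997. Leaving out 1 library, TOMM70A ran from -0.0954 to 0.0492, GRPEL2 from -0.0974 to 0.0195, TIMM23B from -0.126 to 0.0764, GFER from -0.16 to 0.0568, and the TOMM20 over TOMM20L difference from -1.51 to 0.249. With library totals only, TOMM70A, GFER and GRPEL2 were called lower. The labels give both groups the same replicate numbers, but same-numbered libraries did not deviate together (correlations -0.16, -0.01 and -0.05). Correlations of differently numbered libraries ran from -0.13 to 0.17. Deviations from means of 3 libraries cannot decide whether same-numbered libraries were handled together. With the replicate block the call of TOMM20 was lost and no other import call changed, with 26 higher and 1 lower. The causes of these changes were not tested.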
